A study of Homo sapiens with 4 samples.

Results

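The AP-1 clathrin adaptor, a protein complex of vesicle transport that shares only its abbreviation with the FOS and JUN transcription factors, is encoded by 8 genes in the table of 40205 genes. These are the medium chains AP1M1 and AP1M2, the large chains AP1B1, AP1G1 and AP1G2, and the small chains AP1S1, AP1S2 and AP1S3. The genes were taken by name, and the complex was chosen by the measured rise of AP1M2 with the ginseng saponin 20(S)-Rg3, so the values of AP1M2 between the groups are given as a description and are not tested. The other 7 subunits are set beside it. RNA came from cells labelled as SKOV3, a human ovarian cancer line. The control group had 2 libraries with no agent named in their treatment label, and the Rg3 group had 2 libraries from cells kept for 24 h with the saponin at 80 µg/mL. Per the labels each library was made from pooled RNA, and separate cultures behind the libraries are not mentioned. The p-values therefore measure spread among 4 libraries that may be technical.

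AP-1 gathers membrane proteins into clathrin-coated vesicles at the trans-Golgi network and at endosomes. A complex holds a beta chain, which binds clathrin, a gamma chain, which binds accessory proteins, a mu chain, which reads tyrosine-based sorting signals on cargo, and a small sigma chain. The mu chain mu1A, from AP1M1, is made in most cells, whereas mu1B, from AP1M2, is known from epithelial cells, where the AP-1B form of the complex sorts receptors to the basolateral surface.

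The libraries held 24482846 and 26731913 counts in the controls and 30132517 and 24571619 with Rg3. Levels are CPM values, counts divided by library size after scaling of the libraries to each other, and they are not scaled by transcript length, so levels of different genes are not compared. Of the 9 markers listed for the labelled line, 7 passed the filter on low counts and 0 were called by edgeR, DESeq2 or voom. The keratins KRT8 and KRT18 lay between 1557 and 2817 CPM and mesothelin, MSLN, between 43.0 and 66.4 CPM. KRT19 had 0 counts in 3 libraries and 0.0812 CPM in the other, WT1 had 0 counts in 2 libraries, and the Müllerian factor PAX8 lay at 0.681 CPM or below. ERBB2, the receptor gene amplified in this line, lay between 45.2 and 53.5 CPM. Whether the cells were of the labelled line was not tested. Of 17 leukocyte, endothelial and fibroblast markers, 5 passed the filter, 0 were called by these tools and 0 had an unadjusted p under 0.05, as for the 7. Over the whole table edgeR called 0.0306% of genes tested, and 772 of 16323 had an unadjusted p under 0.05. Without Rg3 replicate 1 CD68 was called, and without Rg3 replicate 2 COL1A1 and KRT18 were. The leukocyte list summed to 21.8 and 17.2 CPM in the controls and 17.7 and 10.6 CPM with Rg3, nearly all of it CD68, with PTPRC at 0 counts in 3 libraries and CD3E in all 4. The endothelial list summed to between 16.5 and 19.8 CPM in the 4 libraries, nearly all of it CDH5, with KDR and TEK at 0 counts. The fibroblast list summed to between 29.5 and 39.1 CPM, most of it PDGFRB, with COL1A2, COL3A1 and LUM at 0 counts in 3 libraries each. The part of other cells in the results was not tested.

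AP1M2, the epithelial mu1B chain, stood at 28.7 and 31.0 CPM in the controls and at 52.0 and 53.2 CPM with Rg3. Both Rg3 libraries lay above both controls, and each pair of libraries agreed more closely than the groups did. The group means were 29.8 ± 1.59 and 52.6 ± 0.862 CPM (mean ± SD over the n = 2 libraries of a group, as in later paragraphs), which is a fitted 1.76-fold difference and a log2 fold change of 0.82 (SE 0.14). Taking each Rg3 library against each control, 4 pairs in all, the log2 difference ran from 0.75 to 0.89. These values rest on 707 and 818 counts in the controls and 1602 and 1282 counts with Rg3. In such bulk RNA, more cells that make the transcript and more transcript per cell cannot be told apart. Of all 16323 genes tested, 226 had a higher log2 fold change, 34 of them among the 8767 genes with a mean of at least 10 CPM. AP1M2 was not among the 5 genes called over the whole table by edgeR at an adjusted p under 0.05 (0.0306% of the 16323 genes tested), nor called by voom. With RLE or upper-quartile scaling of the libraries, edgeR did not call it either. AP1M2 was among those called by DESeq2, by edgeR without the filter on low counts and by edgeR with the replicate number as a block. As AP1M2 was chosen for this contrast, neither outcome is a test of it.

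**Figure D1:**
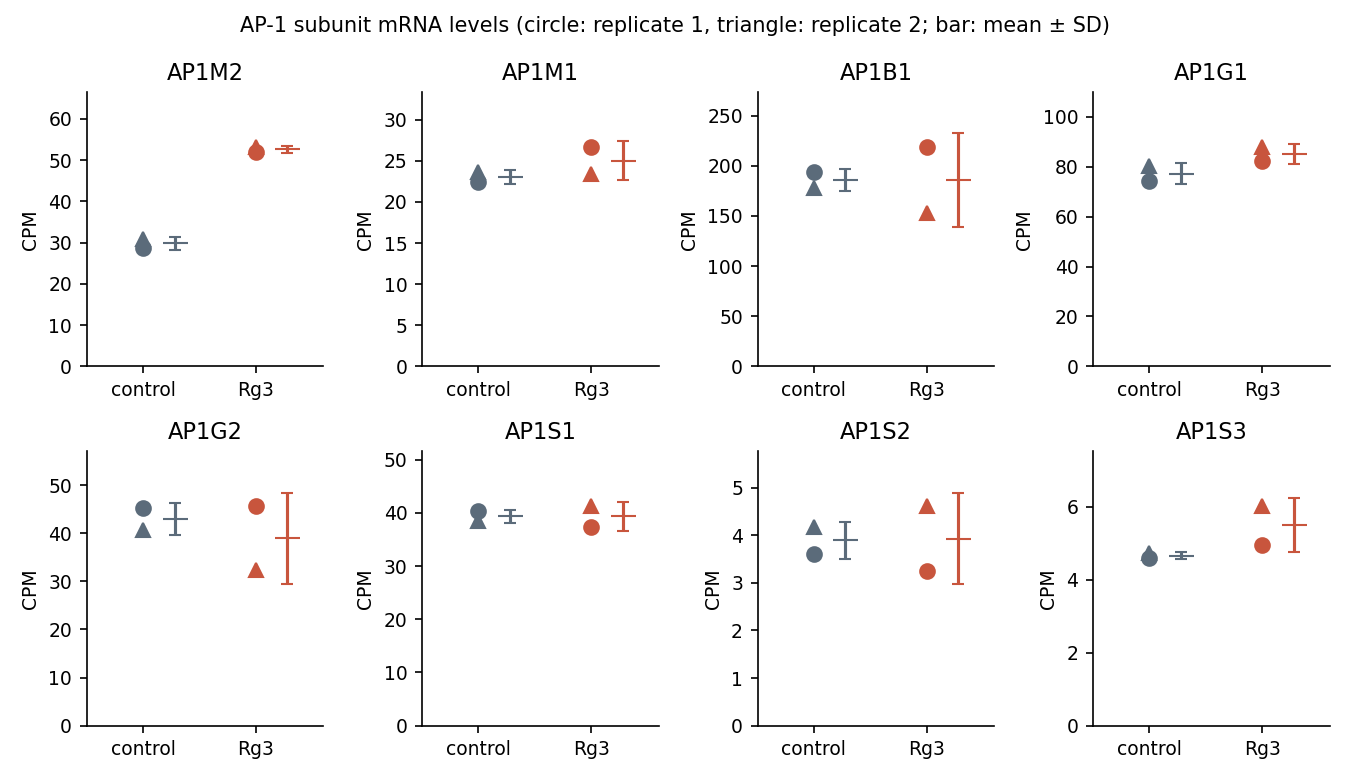
CPM of the 8 AP-1 subunits in the 4 libraries, with 1 panel per gene, each with its own vertical axis from 0; circles are replicate 1, triangles replicate 2, and bars the group mean ± SD. AP1M2 is at 28.7 and 31.0 CPM in the controls and at 52.0 and 53.2 CPM with Rg3, while AP1B1 and AP1G2 differ mainly between the Rg3 libraries.

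The bases that precede the annotated start of AP1M2 are shown because this gene set the choice of the complex. The sequence is RefSeq's for GRCh38.p14, chr19:10587313-10587562 on the minus strand, written 5′ to 3′ and ending at the base before the start; capitals mark matches to the E-box CACCTG.

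AP1M2: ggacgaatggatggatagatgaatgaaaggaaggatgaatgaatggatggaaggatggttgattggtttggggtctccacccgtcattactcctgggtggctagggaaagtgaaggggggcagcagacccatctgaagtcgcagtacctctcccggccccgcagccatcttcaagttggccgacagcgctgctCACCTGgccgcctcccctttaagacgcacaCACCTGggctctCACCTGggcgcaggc

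The 3 matches begin 57, 27 and 15 bases before the start, all on the strand of the gene. Windows of 250 bases before to 50 bases after the start were searched on both strands, and 7 of the 8 members had such a window, AP1M1 not. CACCTG was found in 20.6% of all 35116 windows, and 3 or more matches in 0.635%. Among the members AP1B1 and AP1S3 also held a match, each after the start. The sterol regulatory element letters TCACNCCAC (1.13% of all windows) and the Grainyhead-like letters AACCGGTT (0.134%) were found in 0 of the 7 windows. CACCTG shares no full match with the other motifs, and a match in letters is a description of the sequence only. Which start the cells used was not measured.

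AP1M1, the ubiquitous mu1A chain and alternative partner to mu1B in the complex, stood at 22.4 and 23.7 CPM in the controls and at 26.7 and 23.4 CPM with Rg3. The groups overlapped. Its log2 fold change was 0.12 (SE 0.15), with a 95% interval from −0.23 to 0.47, and moved to 0.02 without Rg3 replicate 1 and to 0.21 without replicate 2 of that group. In edgeR's quasi-likelihood test it was not called (adjusted p = 0.9993).

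Within a library the reads of the mu genes can be set against each other without any scaling between libraries. AP1M2 took 56.2% (95% Wilson interval 53.4% to 58.9%) and 56.7% (54.1% to 59.2%) of the mu reads in the controls. With Rg3 it took 66.1% (64.2% to 68.0%) and 69.5% (67.4% to 71.5%). The share was 56.4% ± 0.376 in controls and 67.8% ± 2.40 with Rg3, 11.4 percentage points higher, and the intervals of the groups did not overlap. Read for read, AP1M2 stood at 1.28 and 1.31 times AP1M1 in the controls and at 1.95 and 2.28 times with Rg3. These are shares of reads and not of molecules, since the transcripts may differ in length, and the intervals cover counting error only. The summed mu level was 51.1 and 54.6 CPM in the controls and 78.7 and 76.6 CPM with Rg3, with most of the difference in AP1M2. Because AP1M2 chose the complex, these shares are a description as well.

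**Figure D2:**
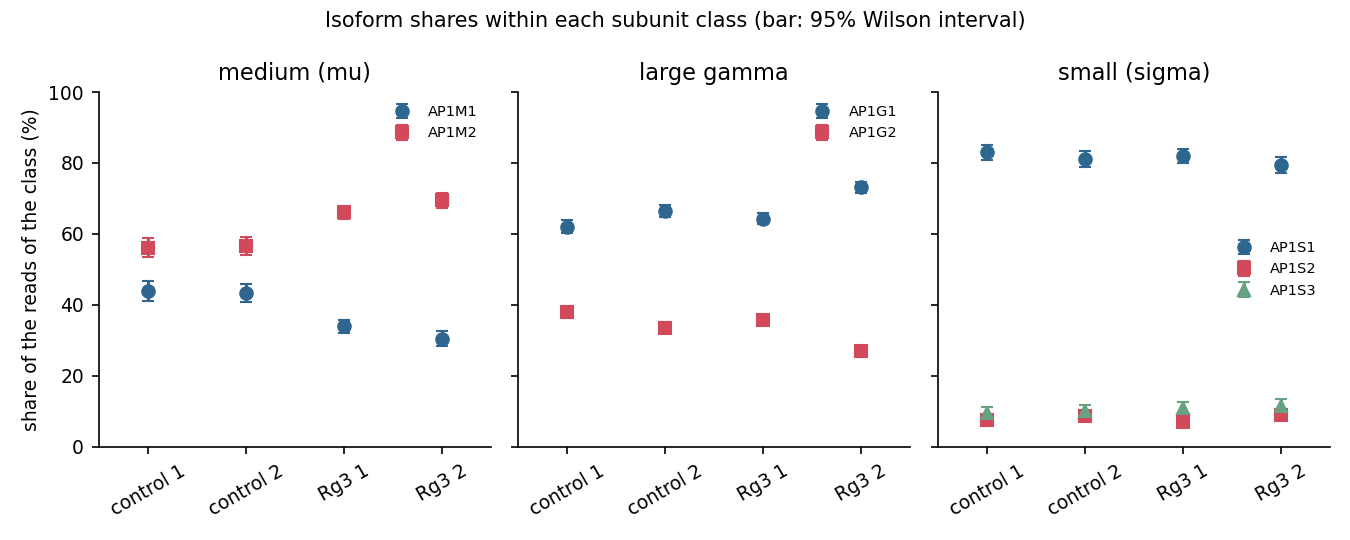
Share (%) of each isoform in the reads of its subunit class, by library, for the mu, gamma and sigma chains; bars are 95% Wilson intervals, which cover counting error only. AP1M2 goes from 56.2% and 56.7% of the mu reads in controls to 66.1% and 69.5% with Rg3, and AP1G2 is lowest, at 26.9% of the gamma reads, in Rg3 replicate 2.

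Of the 7 other subunits, 0 were called by edgeR, DESeq2 or voom over all genes tested, beside the 0.0306% that edgeR called in the whole table. An unadjusted p under 0.05 was found in 0 of the 7 and in 772 of all 16323 genes tested. The adjusted p of the 7 lay between 0.9993 and 0.9997, and each 95% interval of the log2 fold change held 0. Their median log2 fold change was 0.01, against 0.01 over all genes tested, with 5 above and 2 below 0. In 2 of them, AP1G1 and AP1S3, both Rg3 libraries lay above both controls, which 15.3% of all genes tested did, and in 0 of them below, which 17% did. The count of genes called over the whole table was 108 without control replicate 1, 49 without control replicate 2, 884 without Rg3 replicate 1 and 457 without the other Rg3 library. In these fits 1 group has a single library, which is assumed to vary like those of the other group, so calls and missing calls in them say little about stability. Of the 7 subunits 0 were called in them, with 2 at an unadjusted p under 0.05 without Rg3 replicate 1 and 1 without Rg3 replicate 2.

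AP1B1, the beta chain of the complex, stood at 193 and 178 CPM in the controls and at 219 and 153 CPM with Rg3. The Rg3 libraries lay on either side of both controls. The fitted log2 fold change was 0.00 (SE 0.19, 95% interval −0.43 to 0.44), and it moved to −0.28 without Rg3 replicate 1 and to 0.24 without replicate 2 of that group. Rows for the pseudogenes AP1B1P1 and AP1B1P2 held 0 counts in every library.

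AP1G1, the gamma1 chain found in most AP-1 complexes, stood at 74.2 and 80.4 CPM in the controls and at 82.1 and 87.9 CPM with Rg3. The groups did not overlap, though the gap between Rg3 replicate 1 and control 2 was smaller than that between the controls. For AP1G1 the log2 fold change was 0.14 (SE 0.13, 95% interval −0.17 to 0.45). AP1G2, which encodes the related gamma2 chain, stood at 45.3 and 40.6 CPM in the controls and at 45.6 and 32.3 CPM with Rg3. The groups overlapped, and the low value belonged to Rg3 replicate 2. Its log2 fold change was −0.14 (SE 0.19, 95% interval −0.58 to 0.30), and it moved to −0.41 without Rg3 replicate 1 and to 0.09 without replicate 2 of that group. AP1G2 took 37.9% and 33.6% of the gamma reads in the controls and 35.7% and 26.9% with Rg3. This share overlapped between the groups, and the summed gamma level stayed between 119.5 and 127.8 CPM in the 4 libraries.

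AP1S1, which encodes the sigma1A chain, stood at 40.3 and 38.5 CPM in the controls and at 37.4 and 41.3 CPM with Rg3. The fitted log2 fold change was 0.00 (SE 0.14, 95% interval −0.33 to 0.32). It took between 79.5% and 83.1% of the sigma reads in the 4 libraries. AP1S2, the X-linked gene of sigma1B, stood at 3.61 and 4.16 CPM in the controls and at 3.25 and 4.61 CPM with Rg3. Both Rg3 values lay outside the controls, on opposite sides. For AP1S2 the log2 fold change was 0.01 (SE 0.26, 95% interval −0.60 to 0.61), on 89 to 111 counts per library, and moved to 0.25 without Rg3 replicate 1 and to −0.26 without replicate 2 of that group. AP1S3, the sigma1C gene, stood at 4.59 and 4.73 CPM in the controls and at 4.97 and 6.02 CPM with Rg3. The groups did not overlap, with Rg3 replicate 2 the higher of the Rg3 libraries. Its log2 fold change was 0.23 (SE 0.22, 95% interval −0.27 to 0.74), the highest among the 7, and moved to 0.37 without Rg3 replicate 1 and to 0.09 without replicate 2 of that group. The intervals of AP1S2 and AP1S3, the genes with the fewest counts, were the widest of the complex. The summed sigma level lay between 45.6 and 51.9 CPM in the 4 libraries.

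**Figure D3:**
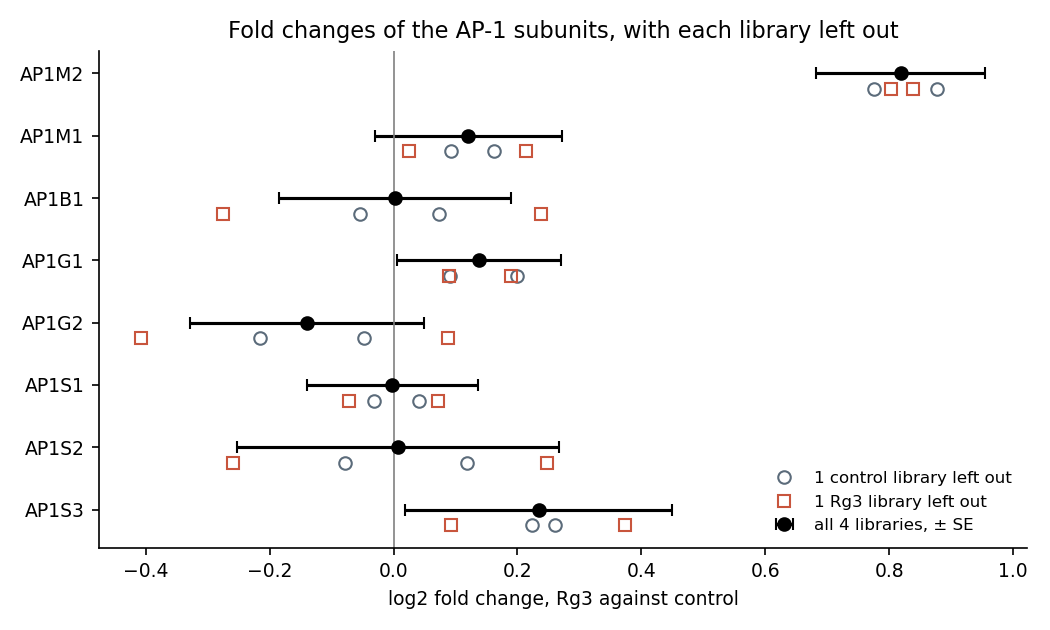
Log2 fold change (Rg3 against control) of the 8 subunits in the edgeR fit with all 4 libraries (filled points ± SE) and with 1 control (open circles) or 1 Rg3 library (open squares) left out. AP1M2 stays between 0.78 and 0.88, while AP1B1, AP1G2, AP1S1 and AP1S2 lie on both sides of 0.

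The subunits also differed in how well libraries of the same group agreed. For AP1M2 this is a description only, because choosing a gene for its rise can favour one whose libraries agree. AP1M2 had a log2 difference of −0.03 between Rg3 replicate 1 and replicate 2, and 93.9% of all genes tested had a larger one in either direction. AP1B1 and AP1G2 were higher in Rg3 replicate 1, by 0.52 and 0.50, and AP1S2 was lower there, at −0.51. Between 25.5% and 27% of all genes had a larger difference than these. For all genes tested the middle 50% ran from −0.28 to 0.32 between the Rg3 libraries and from −0.13 to 0.15 between the controls. Between the controls the 8 subunits lay between −0.20 (AP1S2) and 0.16 (AP1G2), and all but AP1S2 and AP1G2 lay within the middle 50%.

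**Figure D4:**
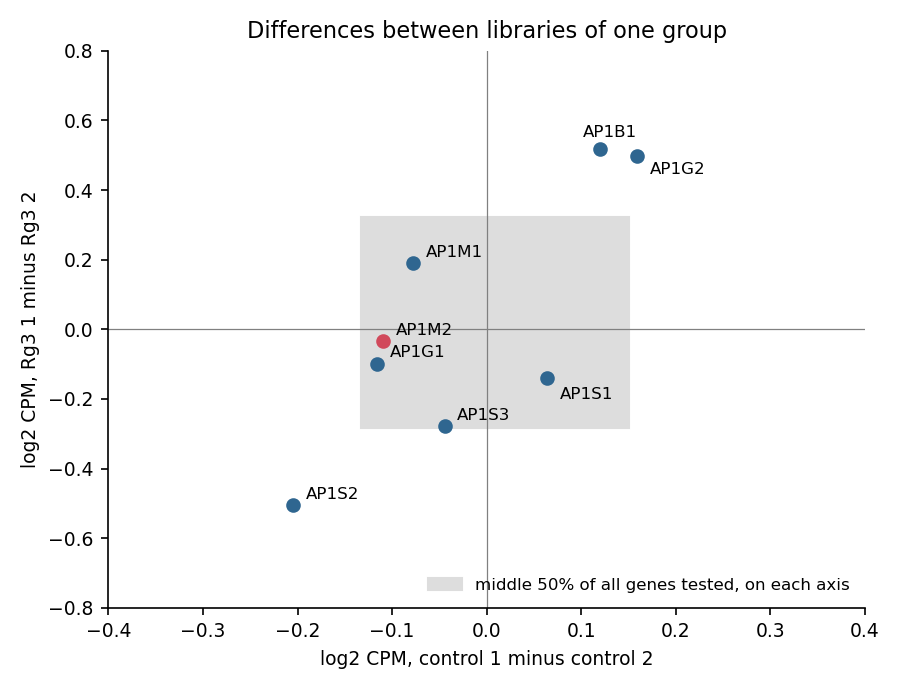
Log2 difference in CPM between the control libraries (horizontal axis) and between the Rg3 libraries (vertical axis) for the 8 subunits; the grey box spans the middle 50% of all 16323 genes tested on each axis. AP1M2 (red) lies at −0.11 and −0.03, and AP1B1, AP1G2 and AP1S2 lie outside the middle 50% between the Rg3 libraries.

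Clathrin, whose heavy and light chains form the coat that AP-1 recruits, had 0 of 4 genes called by edgeR, DESeq2 or voom. Over all genes tested edgeR called 0.0306%. An unadjusted p under 0.05 was found in 0 of the 4 and in 772 of all 16323 genes tested. The median log2 fold change of the 4 was 0.09, which was 0.05 without Rg3 replicate 1. CLTC, the main heavy chain, was at 398 and 424 CPM in the controls and at 435 and 432 CPM with Rg3 (log2 fold change 0.08, SE 0.13). Of the light chains, CLTA was at 81.8 and 86.4 CPM and then at 90.5 and 113 CPM (0.27, SE 0.15), and CLTB had a log2 fold change of 0.09 (SE 0.13). CLTCL1, a second heavy chain gene, had 0.00 (SE 0.14). In CLTA and CLTC both Rg3 libraries lay above both controls, which 15.3% of all genes tested did, and in CLTB and CLTCL1 the groups overlapped. CLTA was called without Rg3 replicate 1.

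Of 24 genes whose products work with AP-1 at the trans-Golgi network and endosomes, 0 were called by edgeR, DESeq2 or voom. An unadjusted p under 0.05 was found in 0 of the 24. Over the whole table edgeR called 0.0306% of genes tested, and 772 of 16323 had an unadjusted p under 0.05. At such shares, counts of 0 in a list of 24 say little about it. Of the 24, 19 had a log2 fold change above 0 and 5 below, and the median was 0.08. Over all genes tested 52.5% lay above 0. The smallest unadjusted p in this list was that of AP1AR, a regulator that binds AP-1, at 10.5 and 9.16 CPM in the controls and at 11.5 and 15.0 CPM with Rg3 (0.43 on the log2 scale, SE 0.20, adjusted p = 0.9993). KIF13A, a kinesin motor that carries AP-1 cargo, was at 155 and 151 CPM and then at 139 and 129 CPM (−0.19, SE 0.13). NECAP2, an adaptor accessory protein, had a log2 fold change of 0.18 (SE 0.14). These 3 genes were named for the smallest unadjusted p, and none of them overlapped between the groups. Of the 24 genes, 8 had both Rg3 libraries above both controls (15.3% of all genes tested) and 2 below (17%). None of the 3 passed the test with all 4 libraries. AP1AR and the uncoating chaperone HSPA8 were called without Rg3 replicate 1, and SYNRG, the gamma-binding synergin, without Rg3 replicate 2.

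Among 18 cargo proteins of AP-1, 0 were called by edgeR, beside 0.0306% of all genes tested. Of the 18, 2 had an unadjusted p under 0.05, as had 772 of all 16323 genes tested. With 10 above and 8 below 0, their median log2 fold change was 0.09, which was 0.02 without Rg3 replicate 1. LAMP2, a lysosomal membrane protein, was at 44.2 and 45.1 CPM in the controls and at 56.4 and 61.7 CPM with Rg3 (0.40 on the log2 scale, SE 0.13, adjusted p = 0.959). The sorting receptor SORT1 had a log2 fold change of 0.33 (SE 0.17). TFRC, the transferrin receptor, which mu1B is known to sort, was chosen after its values were seen, at 1062 and 1250 CPM and then at 1096 and 1370 CPM (0.09, SE 0.17).

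The other adaptor complexes had 0 of 20 genes called by edgeR, DESeq2 or voom, beside the 0.0306% of all genes tested that edgeR called. At an unadjusted p under 0.05 there was 1 of the 20, AP3B2, beside 772 of all 16323 genes tested. AP5Z1 was called without Rg3 replicate 2. The 5 AP-2 genes, which serve endocytosis at the plasma membrane, had a median log2 fold change of −0.10 with 1 above 0, and the median moved to −0.21 without Rg3 replicate 1 and to 0.04 without replicate 2 of that group. Their smallest unadjusted p was that of AP2B1, the beta chain closest to AP1B1, at 115 and 139 CPM in the controls and at 106 and 110 CPM with Rg3 (−0.24, SE 0.15). AP2M1, the mu chain of AP-2, had −0.04 (SE 0.13). The 7 AP-3 genes had a median of 0.04 (−0.08 without Rg3 replicate 2), the 4 AP-4 genes −0.07 and the 4 AP-5 genes 0.08. Leaving out Rg3 replicate 1 gave medians of 0.03 for AP-4 and −0.22 for AP-5, and leaving out replicate 2 gave −0.19 and 0.33. The lowest value among all adaptor subunits was that of AP3B2, a beta chain known from neurons, at 1.34 and 1.85 CPM in the controls and at 0.584 and 1.04 CPM with Rg3 (−0.998, SE 0.40, adjusted p = 0.9993). Of the mu chains, AP1M2, which was chosen for its rise, had the highest log2 fold change, with AP3M2 next at 0.18 (SE 0.18).

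**Figure D5:**
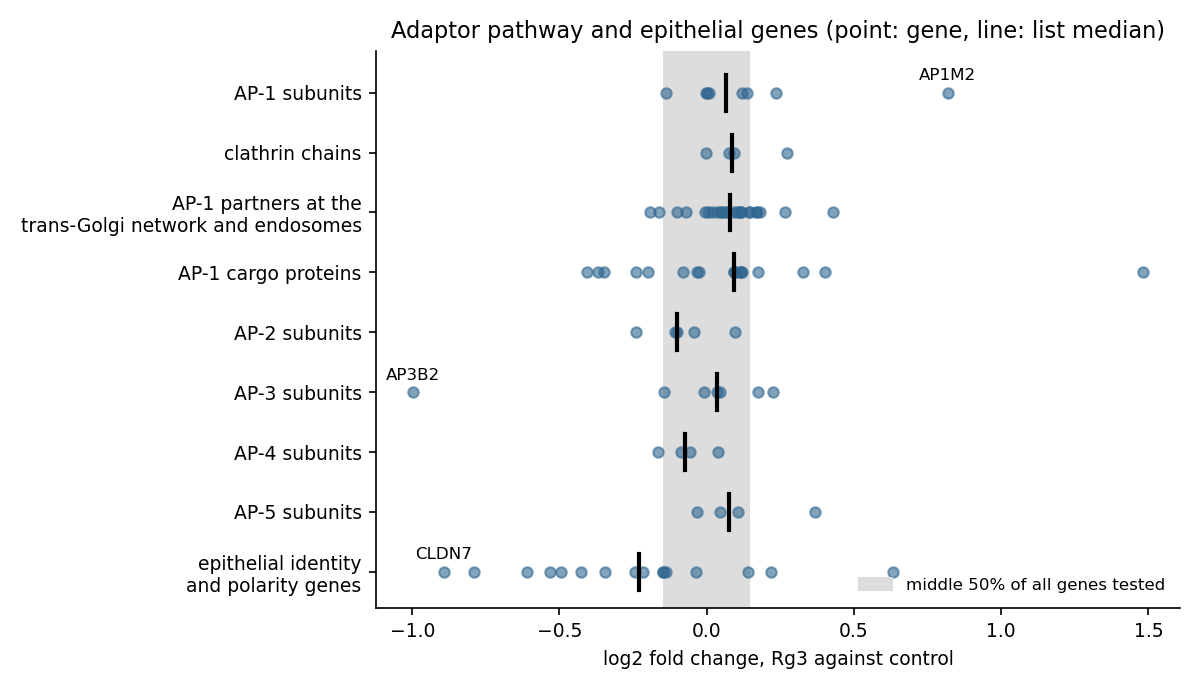
Log2 fold change (Rg3 against control) of each gene tested in the AP-1 pathway, the other adaptor complexes and the epithelial list; points are genes, black lines list medians, and the grey band the middle 50% of all genes tested. AP1M2 (0.82), by whose rise the complex was chosen, stands apart from the other 7 AP-1 subunits, and 13 of 16 epithelial genes tested lie below 0.

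Because mu1B is known from epithelia, a list of 32 epithelial identity and polarity genes was set beside AP1M2. Of these 16 passed the filter on low counts, and 7 of the others had 0 counts in every library, which allows up to 3 counts or 0.125 CPM. Among those at 0 were EPCAM, ESRP1, OVOL1, OVOL2, CLDN3 and MARVELD3. The cadherin CDH1 was at 2.07 and 1.85 CPM in the controls and at 2.44 and 2.12 CPM with Rg3. Other genes of the list had many reads in the 4 libraries, with KRT7 between 2388 and 2565 CPM, KRT8 between 1753 and 2467 CPM and ELF3 between 109.8 and 132.7 CPM. AP1M2 was thus read in cells with few or no reads of several epithelial markers and many reads of others. Of the 16 tested, 0 were called by edgeR, beside 0.0306% of all genes tested. An unadjusted p under 0.05 was found in 2 of the 16 and in 772 of all 16323 genes tested. Among the 16, 3 lay above and 13 below 0, and the median log2 fold change was −0.23, against 0.01 over all genes tested. In 7 of the 16 both Rg3 libraries lay below both controls (17% of all genes) and in 2 above (15.3%). CLDN7, a tight junction claudin, was at 31.0 and 38.5 CPM in the controls and at 15.8 and 21.6 CPM with Rg3 (−0.89, SE 0.20, adjusted p = 0.570). EHF, an epithelial transcription factor, was at 1.58 and 1.78 CPM and then at 0.909 and 1.04 CPM (−0.79, SE 0.32). KRT18 was at 2302 and 2817 CPM and then at 1557 and 2248 CPM (−0.43, SE 0.20). CLDN7 was called by DESeq2, by edgeR without a low-count filter, with the replicate block and without either Rg3 library, and KRT18 without Rg3 replicate 2. None of these 3 genes passed in the reported fit, and each lay in the direction opposite to that of AP1M2. They were named for the smallest unadjusted p. The 3 tested genes above 0 were MARVELD2 (0.63, SE 0.35), CDH1 (0.22, SE 0.27) and LLGL2 (0.14, SE 0.21).

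The genes whose log2 CPM followed AP1M2 most closely over the 4 libraries were found by the root mean square difference from it, after each gene was centred on its control mean, among 14115 genes with a mean of at least 1 CPM. The nearest was RCBTB2, with a difference of 0.0584, at 1.79 and 1.85 CPM in the controls and at 3.05 and 3.49 CPM with Rg3. The transfer RNA gene TRNAG27 (0.0598) and the pseudogene HSP90AA3P (0.073) had at most 73 counts in a library, and the latter may share reads with its parent gene. LOC93622 (0.0693) was at 12.02 and 12.07 CPM and then at 22.2 and 23.0 CPM. GPNMB (0.0788), a transmembrane glycoprotein of lysosomes and melanosomes, was at 4.51 and 4.46 CPM and then at 7.89 and 7.35 CPM. With a minimum mean of 5 CPM, 2 of these 5 genes, LOC93622 and GPNMB, remained among the nearest. This was fixed in advance, since the others lay below that mean and removing genes cannot displace those that stay. With the largest absolute difference as the measure, 4 of the 5 were shared. No other AP-1 subunit was among the 5. This too was fixed in advance, since their log2 fold changes were at most 0.23, against 0.82 for AP1M2. The search can return only genes whose fold change is near that of AP1M2.

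The genes next to AP1M2 on chromosome 19 had smaller differences between the groups than AP1M2, which was chosen for its rise. On one side CDKN2D, a cell cycle inhibitor gene, was at 1.10 and 1.74 CPM in the controls and at 1.62 and 1.95 CPM with Rg3 (log2 fold change 0.32, SE 0.35), and KRI1, a ribosome assembly gene, had −0.17 (SE 0.20). On the other side SLC44A2, a choline transporter-like gene, was at 33.0 and 31.0 CPM and then at 29.0 and 25.3 CPM (−0.24, SE 0.15), beyond the pseudogene LSM2P1, which has no row of that name. None of the 3 measured neighbours was called by edgeR, beside 0.0306% of all genes tested. In SLC44A2 both Rg3 libraries lay below both controls, as in 17% of all genes tested. The values of CDKN2D rest on 27 to 50 counts. The strand setting of the counting is not given in the sources used here, so reads of overlapping genes on the other strand could be included in any of these values.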

How the data were processed

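The authors deposited raw read counts per gene symbol, with 1 column for each library. Build GRCh37 is named in the submitters' processing notes. Aligner, counting tool, annotation and strand setting are not given in the sources used here. The labels name instruments of different makers. Per the labels' protocols the libraries were made from rRNA-depleted total RNA. Tests used edgeR 4.0.16 under R 4.3.3: filterByExpr (minimum count 10, minimum total count 15) kept 16323 genes, TMM scaled the libraries, and the quasi-likelihood test had treatment as the only term (2 residual degrees of freedom before moderation). Calls needed an adjusted p (Benjamini-Hochberg, over all genes tested) under 0.05. DESeq2 1.42.0, limma 3.58.1 (voom), other scalings, no filter, each library left out and the replicate number as a block were alternatives. The test was checked on simulated data.

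The members and the 13 gene lists were chosen with earlier results of these data known. All subunits and clathrin chains are named. Other lists give any called gene and up to 3 genes with the smallest unadjusted p; the 5 genes most like AP1M2 and its neighbours are named too, and others were chosen after their values were seen. Of 132 list symbols, 2 matched by an older symbol. RefSeq tables of GRCh38.p14 gave sequences and gene order, since no genome of the files' build was used here. Some list genes are not reported here but were kept in all tests and counts.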

Additional observations from a re-analysis of the deposited data

How the results depend on the processing

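The number of genes called over the whole table changed with the processing, while 0 of the 7 subunits other than AP1M2 were called under every alternative run. Against 5 genes in the reported fit, DESeq2 called 54, edgeR without a low-count filter 214, and the fit with the replicate block 155; RLE and upper-quartile scaling and voom gave 5, 7 and 5. Leaving out each library gave 49 to 884. The log2 fold change of AP1M2, chosen for this contrast and not tested, was above 0 in every fit. The replicate numbers are not stated to pair the samples, and deviations of same-numbered libraries had r = 0.149 across genes. Subunits near 0 turned sign: AP1S1 was 0.0015 with RLE and with DESeq2 and 0.0059 without a filter. AP1B1 was −0.0282 and AP1S2 −0.0205 with upper-quartile scaling, −0.0199 and −0.0231 with voom, and −0.0197 and −0.0003 with the block. When single libraries were left out, log2 fold changes ran from −0.2758 to 0.238 for AP1B1, −0.4075 to 0.0886 for AP1G2, −0.0724 to 0.071 for AP1S1 and −0.2596 to 0.2477 for AP1S2. The causes were not tested. With 2 libraries per group and 89 to 153 counts, AP1S2 and AP1S3 are the least precise.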
